A study of Mus musculus with 14 samples.

Results

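The 10 genes described here encode chromatin remodelers, histone chaperones and repressors: Smarca4, Smarca2, Smarca5, Chaf1a, Chaf1b, Chd1, Trim28, Trim24, Setdb1 and Ctcf. They were taken by gene symbol, by a rule that uses no measured value, and each symbol matched 1 row, giving 10 of the 56923 genes in the count table. RNA-seq counts were available for 14 libraries of mouse 2-cell embryos, 2 in each of 7 conditions, with 5 embryos in each library. Embryos came from ICR mice aged 6 to 8 weeks, and times are hours after the injection of human chorionic gonadotropin (hCG) that triggers ovulation.

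Early 2-cell embryos were collected at 30 h and late 2-cell embryos at 54 h. In the G&N condition, embryos were cultured from 24 h in medium with 10 mM lactate, 5 µM Gne140, which inhibits both LDHA and LDHB, and 50 µM nicotinamide mononucleotide (NMN), which replenishes NAD. In the G&N-L condition the medium was the same but held 0 mM lactate. Both were sampled early and late. The G&N-L + Lac-CoA condition, sampled late, was G&N-L after injection of 1 mM lactyl-CoA into the zygote. Late H3K18R embryos received H3.1, H3.2 and H3.3 mRNAs with lysine 18 replaced by arginine at 14 h, at 200 ng/µL. The methods give wild-type H3 mRNAs at the same concentration for the late WT embryos that stand beside them. Gne140 and NMN were therefore shared by 5 conditions, including both lactate controls.

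The labels leave several points open. For the early libraries, the treatment field names Gne140 and NMN for G&N-L and Gne140 alone for G&N, and the titles were followed. The Lac-CoA libraries carry CoA in that field, and the WT libraries carry WT alone, while the study describes its WT embryos as overexpressing wild-type H3 mRNAs. The count columns of the H3K18R libraries are headed K18A. The histone gene H3c1 held 43643 and 83390 counts in the H3K18R libraries and 0 to 66 in the other 12, with 3 and 4 in WT. The H3.3 genes H3f3a and H3f3b were at 813 to 841 and 5076 to 5223 CPM (counts scaled to a common library size) in WT and at 739 to 865 and 3827 to 5272 CPM in H3K18R, and the other H3 genes read were at 10.8 CPM or below in every library. Nothing in the labels ties libraries to separate litters or cultures, so p-values measure the spread between these libraries, which may be technical, and the methods name 3 replicates where 2 are counted here.

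Library totals ran from 20350427 to 61275465 counts. Of 9 oocyte and 2-cell embryo markers none was at 0 in any library, and their summed level was 20878 to 29701 CPM in the 4 early and 9965 to 15554 CPM in the 10 late libraries. Of 10 cumulus or granulosa cell markers 4 to 8 were at 0 in a library, and their summed level was 1.76 to 9.65 CPM early and 3.52 to 37.7 CPM late. The summed level of 17 genes of the 2-cell program (Zscan4, Tdpoz, Usp17l and others, several with near-identical copies that share reads) was 377 to 604 CPM early and 2662 to 6251 CPM late. These marker sums moved with stage beside every result given below for stage, and their part in those results was not tested. In bulk embryos, fewer cells with a transcript and less transcript in each cell cannot be told apart.

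Nucleosome remodelers are ATP-driven enzymes that slide, space, evict or exchange nucleosomes, and they fall into SWI/SNF, ISWI, CHD and INO80 families. Histone chaperones such as chromatin assembly factor 1 (CAF-1) place new H3-H4 on replicated DNA, while TRIM28 recruits SETDB1, which methylates histone H3 at lysine 9, to silence retroelements and nearby genes. In the mouse 2-cell embryo the genome is switched on while maternal transcripts decay, and in embryonic stem cells the loss of CAF-1 or TRIM28 is known to release genes typical of the 2-cell stage.

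Smarca2 and Smarca4, the paralogous ATPases of SWI/SNF (BRM and BRG1), were at opposite ends of the levels. Levels are given as CPM after TMM normalisation across all 14 libraries, and levels of different genes are compared only as RPKM, that is CPM per kilobase of merged exons. Smarca2 read 42.5 and 59.1 RPKM in early G&N and Smarca4 read 1.78 and 1.5 RPKM in the same libraries. The ratio of Smarca2 to Smarca4 in RPKM was 23.9 to 53.4 in the 4 early libraries, 16.3 to 40.9 in the 6 late libraries with Gne140 and NMN, and 5.58 to 14.6 in the 4 late WT and H3K18R libraries, so the last set did not overlap the others. With the longest transcript as the length, the ratio was 13.1 to 125 over the 14 libraries, since the merged exons of Smarca2 are longer than its longest transcript (17813 against 7567 bases). Smarca2 alone took 24.5% to 71.7% of the counts of the 10 genes in a library. That share is of raw counts, not divided by length, and the merged exons of Smarca2 are the longest of the 10.

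Ordered by mean RPKM, Smarca2 stood first in 5 of the 7 conditions and Smarca5, the ISWI ATPase, stood first in WT and H3K18R. In the H3K18R libraries the 2 did not differ beyond their spread, with 30 ± 6.74 RPKM for Smarca2 and 47.5 ± 22.3 RPKM for Smarca5 (SD, n = 2). By the longest transcript, Smarca2 led in all conditions but WT. Ctcf, the zinc-finger protein of insulators and loop anchors, came after Smarca2 and Smarca5 in both early conditions, at 16.1 ± 2.68 RPKM in G&N and 14.1 ± 1.36 RPKM in G&N-L (SD, n = 2), and Smarca5 and Ctcf did not differ beyond their spread in early G&N, where Smarca5 was 16.8 ± 0.14 RPKM (SD, n = 2). At the bottom, Smarca4 was the lowest of the 10 in both early conditions and Chaf1a in all 5 late conditions, at means of 0.405 to 0.675 RPKM. Among expressed genes ordered by RPKM, Chaf1a was at percentile 76.1 in early G&N and 42.0 in late G&N, while Smarca2 was at percentile 92.0 or above in every condition.

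**Figure D1:**
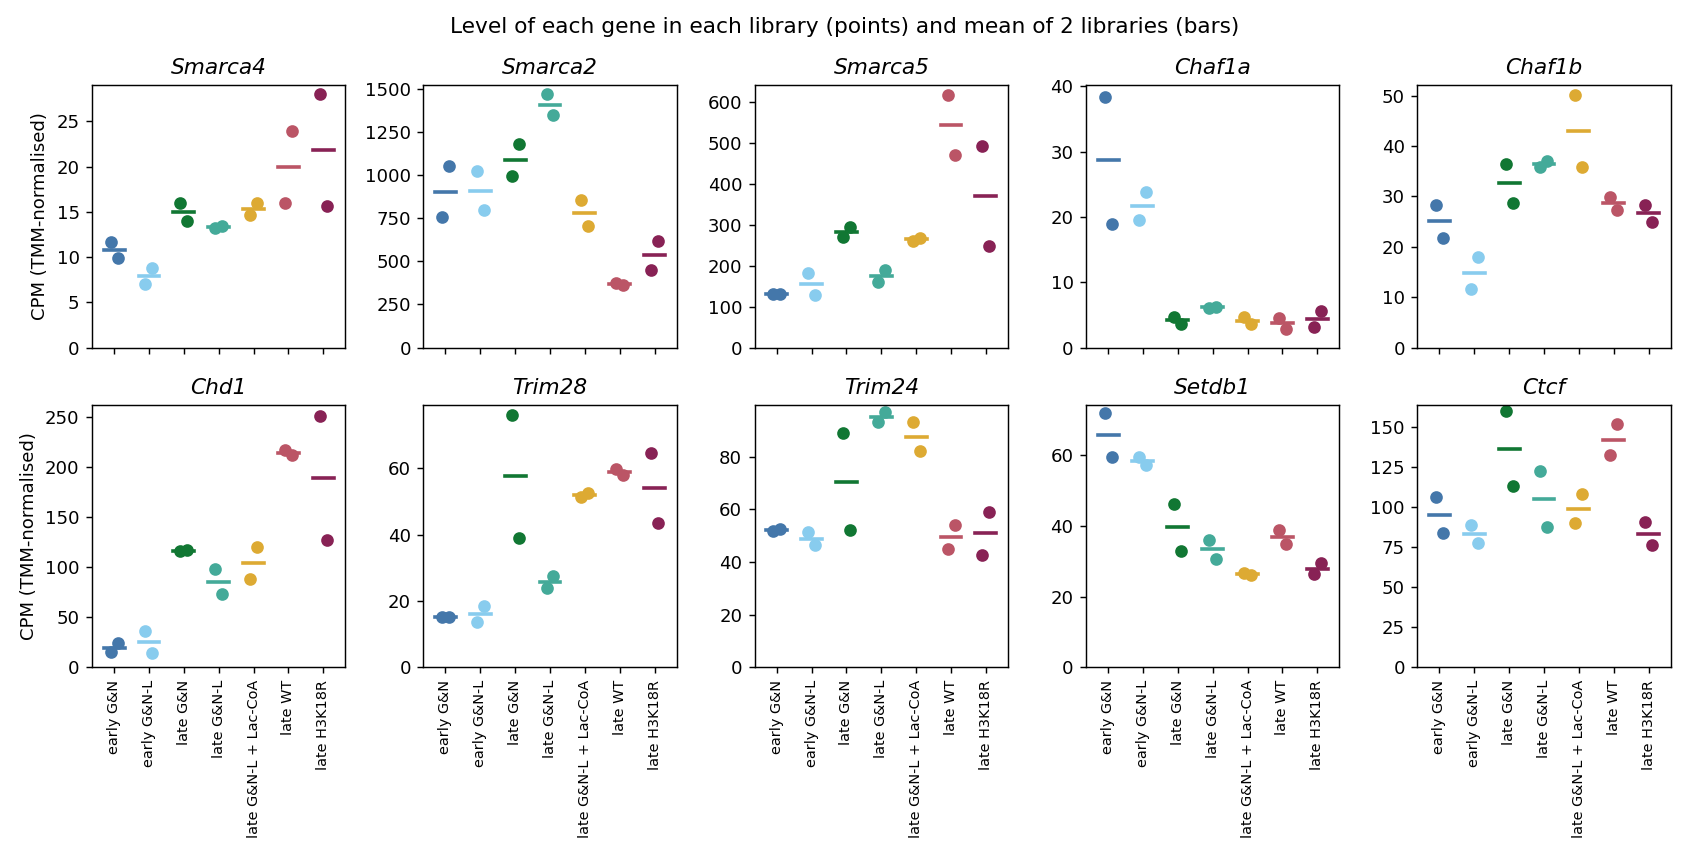
Level of each of the 10 genes in CPM (TMM-normalised, axes from 0) in each of 14 libraries (points) by condition, with the mean of 2 libraries as a bar. Chaf1a was at 18.9 to 38.4 CPM in the early and 2.90 to 6.21 CPM in the late libraries, Chd1 was at 14.1 to 36.0 CPM early and 73.1 to 251 CPM late, and Smarca2 was lowest in WT and H3K18R.

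Between the early and late 2-cell stage in G&N embryos, Chd1 and Smarca5 rose and Chaf1a fell, and the other 7 genes did not pass the test. Chd1, an ATPase that binds H3 trimethylated at lysine 4 and keeps chromatin open, rose 5.55-fold, Smarca5 rose 2.04-fold, and Chaf1a, the large subunit of CAF-1, fell to 0.14 of its early level. In G&N-L embryos Chaf1a fell again, to 0.27 of its early level, and Trim24, a bromodomain protein related to TRIM28, rose 1.87-fold. All folds are relative to the rest of a library, since the methods name no spike-in, and amounts per embryo were not measured. The test was the quasi-likelihood F-test of edgeR, and a gene was called where its p, adjusted by Benjamini-Hochberg over every gene of the fit, was below 0.05. In G&N, 2 of the 10 genes were called higher where 8.18% of 19443 tested genes were, and 1 was called lower where 5.47% were. In G&N-L, 1 was higher and 1 lower, where 5.97% and 5.87% of 18604 tested genes were. With any 1 library of either comparison left out, fewer of the 10 were called, and fewer of all genes tested were too. The median log2 fold change of the 10 genes was 0.39 in G&N and 0.59 in G&N-L, beside 0.08 and 0.145 over all genes tested, and 8 of the 10 had a positive value in each, beside 51.8% and 54.1% of all genes. The scaling moved that background: with library totals in place of TMM factors the median of all genes was 0.46 in G&N and 0.51 in G&N-L, and 2005 of 2623 calls in G&N and 1819 of 2504 in G&N-L were higher, against 1591 of 2654 and 1111 of 2203 with TMM.

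Chaf1a read 38.4 and 18.9 CPM in early G&N, 19.6 and 23.8 CPM in early G&N-L, 4.73 and 3.67 CPM in late G&N, 6.08 and 6.21 CPM in late G&N-L, 4.65 and 3.57 CPM with Lac-CoA, 4.48 and 2.90 CPM in WT, and 3.16 and 5.65 CPM in H3K18R. Every late library was below every early one, and early G&N replicate 1 was well above the other 3 early libraries. The log2 fold change, late minus early, was -2.81 ± 0.52 (SE) in G&N, with an adjusted p of 0.0288, and -1.88 ± 0.39 (SE) in G&N-L, with an adjusted p of 0.0429. With library totals the values were -2.45 and -1.53 and neither was called, at adjusted p of 0.0527 and 0.0672. Leaving out early replicate 1, late replicate 1 or late replicate 2 in G&N, or any 1 of the 4 libraries in G&N-L, also ended the call, with log2 fold changes of -3.02 to -2.22 and -2.07 to -1.70.

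Chaf1b, the smaller CAF-1 subunit that pairs with CHAF1A, was not called in either condition by edgeR. Its level was 28.3 and 21.8 CPM in early G&N, 11.6 and 18 CPM in early G&N-L, 36.5 and 28.8 CPM in late G&N and 35.8 and 37.0 CPM in late G&N-L. The late libraries were above the early ones within each condition, but the log2 fold changes of 0.32 ± 0.35 and 1.23 ± 0.36 (SE) had adjusted p of 0.595 and 0.0782. The G&N-L value was called under 3 of 7 other settings, at 1.22 to 1.58 over the 7, among them DESeq2 with an adjusted p of 0.0125. The ratio of Chaf1a to Chaf1b in RPKM was 0.48 to 0.93 in the 4 early libraries and 0.051 to 0.13 in the 10 late libraries. This ratio is formed within a library, so it is free of the scaling between libraries.

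Chd1 read 15.0 and 24.2 CPM in early G&N, 36.0 and 14.1 CPM in early G&N-L, 116 and 117 CPM in late G&N, 98.3 and 73.1 CPM in late G&N-L, 87.9 and 121 CPM with Lac-CoA, 217 and 212 CPM in WT, and 251 and 128 CPM in H3K18R. All 10 late libraries were above all 4 early ones, and the WT and H3K18R libraries were the highest of the late ones. The log2 fold change was 2.47 ± 0.40 (SE) in G&N, with an adjusted p of 0.0211, and 1.73 ± 0.47 (SE) in G&N-L, with an adjusted p of 0.072. The G&N-L value was called under 6 of 7 other settings, at 1.72 to 2.12, with adjusted p of 0.00071 to 0.0671 over the 7. Without late G&N replicate 1 or 2 the G&N value was 2.46 and was not called, at adjusted p of 0.0889 and 0.0881. Without early G&N-L replicate 1, the higher of that pair, the G&N-L value was 2.49 with an adjusted p of 0.0306.

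Smarca5, whose protein (SNF2H) spaces nucleosomes and serves CTCF-bound sites, read 132 and 130 CPM in early G&N, 183 and 130 CPM in early G&N-L, 270 and 295 CPM in late G&N, and 160 and 190 CPM in late G&N-L. The late libraries were all above the early ones in G&N, whereas the 2 stages overlapped in G&N-L. Its log2 fold change was 1.03 ± 0.24 (SE) in G&N, with an adjusted p of 0.0488, and 0.11 ± 0.21 (SE) in G&N-L, with an adjusted p of 0.797. Leaving out any 1 of the 4 G&N libraries ended the call, with values of 0.96 to 1.15. The difference between the stage changes, tested as an interaction of stage and lactate, was -0.96 ± 0.30 (SE) for Smarca5, with an adjusted p of 0.639. Of all 22287 genes in that fit, 0% were called, by DESeq2 224 were, and 7.55% had an unadjusted p under 0.05, as did 1 of the 10 genes, Smarca5.

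The stretch before the start of the canonical transcript is shown for Smarca5 and Chaf1a, because the first rose and the second fell in G&N (GRCm39, the build of the counts, 250 bases read 5′ to 3′ on the gene's strand). Capitals mark GC boxes (GGGCGG or its reverse complement CCGCCC) and CCAAT boxes (CCAAT or ATTGG), and no searched motif contains another. The windows are chr8:81466153-81466402 on the minus strand for Smarca5 and chr17:56347053-56347302 on the plus strand for Chaf1a, each ending at the base before the first exon.
Smarca5: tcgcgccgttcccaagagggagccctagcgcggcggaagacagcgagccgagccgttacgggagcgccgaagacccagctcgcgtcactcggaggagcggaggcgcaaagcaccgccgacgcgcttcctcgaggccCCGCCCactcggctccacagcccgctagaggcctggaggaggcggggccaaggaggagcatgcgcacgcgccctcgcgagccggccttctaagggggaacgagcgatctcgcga
Chaf1a: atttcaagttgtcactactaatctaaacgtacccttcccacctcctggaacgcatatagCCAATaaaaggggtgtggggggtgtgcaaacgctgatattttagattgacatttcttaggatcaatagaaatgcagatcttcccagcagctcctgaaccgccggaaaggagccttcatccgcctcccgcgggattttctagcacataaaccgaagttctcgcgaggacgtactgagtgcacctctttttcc
The window of Smarca5 held 36 CpG and that of Chaf1a 12, beside a median of 8 over the windows of 21757 protein-coding genes. Smarca5 held 1 GC box and no CCAAT box, and Chaf1a held a CCAAT box and no GC box. Of the 10 genes, 8 held a GC box, which 36.3% of all windows did, and 4 held a CCAAT box, which 36.5% did. The TATA box (TATAAA or TTTATA) and the motifs TAATCC (or GGATTA) and AAGGTCA (or TGACCTT) were in none of the 10 and in 11.9%, 7.0% and 3.93% of all windows. A match is a description of these letters only.

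Trim28, the corepressor KAP1 that ties KRAB zinc-finger proteins to SETDB1, read 15.2 and 15.2 CPM in early G&N, 13.7 and 18.5 CPM in early G&N-L, 76.1 and 39.1 CPM in late G&N, 23.9 and 27.6 CPM in late G&N-L, 51.3 and 52.5 CPM with Lac-CoA, 59.9 and 57.9 CPM in WT, and 64.5 and 43.6 CPM in H3K18R. All late libraries were above all early ones, and among the late libraries both G&N-L values were below the other 8. The log2 fold change with stage was 1.85 ± 0.45 (SE) in G&N, with an adjusted p of 0.0524, and 0.61 ± 0.35 (SE) in G&N-L, with an adjusted p of 0.318. The G&N value was called under 6 of 7 other settings, among them DESeq2 with an adjusted p of 0.000365. The interaction was -1.29 ± 0.58 (SE), with an adjusted p of 0.65.

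Setdb1, the H3K9 methyltransferase partner of TRIM28, read 72.1 and 59.7 CPM in early G&N, 59.7 and 57.4 CPM in early G&N-L, 46.2 and 33.0 CPM in late G&N, and 36.1 and 30.7 CPM in late G&N-L. All early libraries were above all late ones, which ran from 26.1 to 46.2 CPM. The log2 fold changes were -0.80 ± 0.32 and -0.87 ± 0.23 (SE), with adjusted p of 0.145 and 0.0701, and only DESeq2 called the G&N-L value, with an adjusted p of 0.0156. The ratio of Trim28 to Setdb1 in RPKM was 0.54 to 0.82 in the 4 early libraries and 1.68 to 6.20 in the 10 late ones.

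Trim24 read 51.8 and 52.4 CPM in early G&N, 51.2 and 46.5 CPM in early G&N-L, 89.0 and 52.1 CPM in late G&N, and 93.3 and 97.1 CPM in late G&N-L. The stages overlapped in G&N and were apart in G&N-L. The log2 fold change was 0.36 ± 0.37 (SE) in G&N, with an adjusted p of 0.559, and 0.90 ± 0.19 (SE) in G&N-L, with an adjusted p of 0.0427. The G&N-L call ended without any 1 of its 4 libraries, with values of 0.87 to 0.94, and in the fit over all 14 libraries, with an adjusted p of 0.0805. The interaction for Trim24 was 0.49 ± 0.42 (SE), with an adjusted p of 0.838, so the 2 stage changes were not shown to differ.

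The remaining 3 genes were not called. Smarca4 was at 7.08 to 11.7 CPM in the early and 13.3 to 28.0 CPM in the late libraries, which did not overlap, but its log2 fold changes of 0.41 ± 0.45 in G&N and 0.68 ± 0.44 (SE) in G&N-L had adjusted p of 0.595 and 0.371. Ctcf was at 77.5 to 106 CPM early and 76.5 to 160 CPM late, and its values of 0.46 ± 0.29 and 0.28 ± 0.24 (SE) had adjusted p of 0.328 and 0.51. For Smarca2 the change was 0.17 ± 0.31 (SE) in G&N and 0.58 ± 0.15 (SE) in G&N-L, with adjusted p of 0.766 and 0.0718, and the latter was called by DESeq2, with library totals, and with at least 10 counts in every library.

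**Figure D2:**
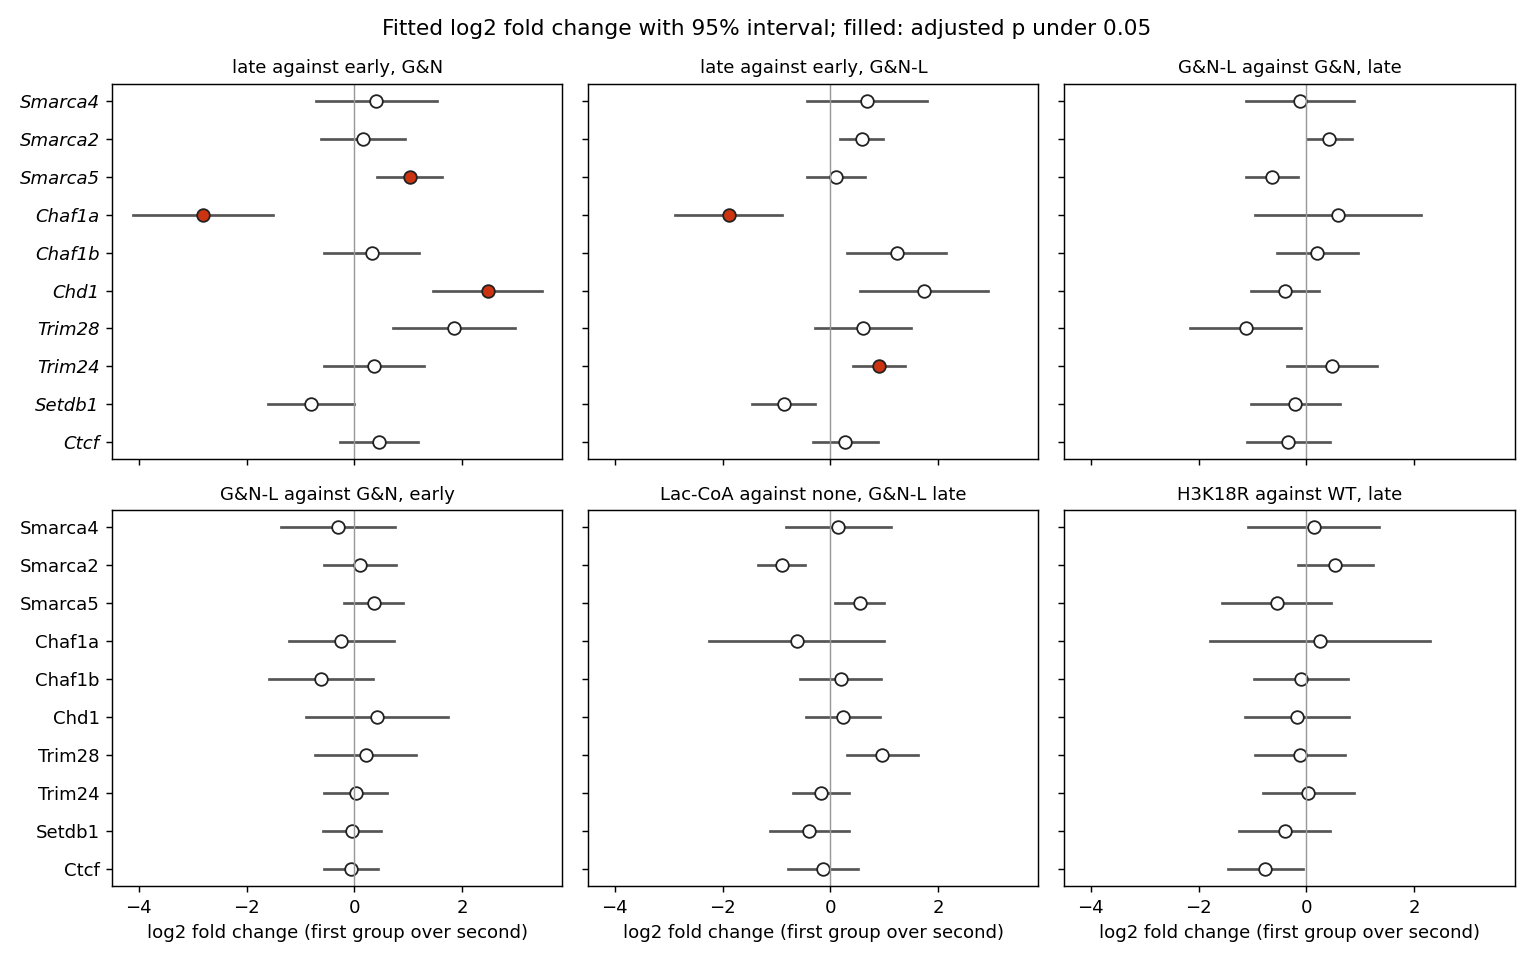
Fitted log2 fold change of the 10 genes in 6 comparisons (first group over second), with the 95% interval of the edgeR fit, unadjusted for the number of genes; filled points have an adjusted p under 0.05 over all genes. Called values were Smarca5 at 1.03, Chaf1a at -2.81 and Chd1 at 2.47 in G&N and Chaf1a at -1.88 and Trim24 at 0.90 in G&N-L, and the other 4 panels hold none.

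Comparing late embryos cultured from 24 h with and without lactate asked whether these genes respond to its loss. None of the 10 was called. At an adjusted p under 0.05, 0 of the 10 and 0% of 19481 genes were called by edgeR, while DESeq2 called 916 genes and 0 of the 10. At an unadjusted p under 0.05, 3 of the 10 passed where 12.0% of all genes did. Trim28 was 0.46 of its G&N level in G&N-L (log2 fold change -1.13 ± 0.41, SE, unadjusted p = 0.0372, adjusted p = 0.369), with both G&N-L libraries below both G&N ones. Without late G&N replicate 1, the higher of that pair, the value was -0.52. Smarca5 was 0.64 of its G&N level (-0.64 ± 0.19, adjusted p = 0.333), also without overlap. Smarca2 was 1.34-fold of its G&N level (0.43 ± 0.16, adjusted p = 0.395), with 1468 and 1350 CPM against 993 and 1180 CPM. The other 7 genes had log2 fold changes of -0.40 to 0.59.

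Injection of Lac-CoA, compared with the same late G&N-L libraries, called none of the 10 by edgeR, with 0% of 19610 genes called, and DESeq2 called 1183 genes with 1 of the 10. At an unadjusted p under 0.05, 3 of the 10 passed where 13.3% of all genes did. That 1 was Smarca2, which read 853 and 705 CPM with Lac-CoA against 1468 and 1350 CPM without, a log2 fold change of -0.90 ± 0.17 (SE). Its adjusted p was 0.294 by edgeR and 0.000365 by DESeq2, and 0.0834 to 0.35 under the other settings with all libraries. Trim28 was at 1.95-fold of its G&N-L level (0.96 ± 0.26, SE, adjusted p = 0.301) and Smarca5 at 1.46-fold (0.54 ± 0.18, SE, adjusted p = 0.31), neither overlapping and neither called. Because this comparison and the lactate comparison share the late G&N-L libraries, a high or low value in those 2 libraries enters both with opposite sign, and the signs are not set against each other here. No injection is named for the G&N-L embryos, so Lac-CoA and the injection itself cannot be told apart.

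The ratio of Trim24 to Trim28 in RPKM put these values within single libraries. It was 1.20 and 1.33 in late G&N-L, 0.40 and 0.46 in late G&N, 0.53 and 0.62 with Lac-CoA, and 0.23 to 0.46 in WT and H3K18R. The late G&N-L libraries were thus the 2 highest of the 10 late libraries and lay beside the 4 early ones, at 0.86 to 1.28. Both genes nonetheless read higher late than early in G&N-L, with means of 48.9 and 95.2 CPM for Trim24 and 16.1 and 25.7 CPM for Trim28. The same 2 late G&N-L libraries stand against both G&N and Lac-CoA, so these are not separate differences. With 2 libraries against 2 an exact two-sided permutation test cannot go below 0.333, so no test of this ratio was made.

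**Figure D3:**
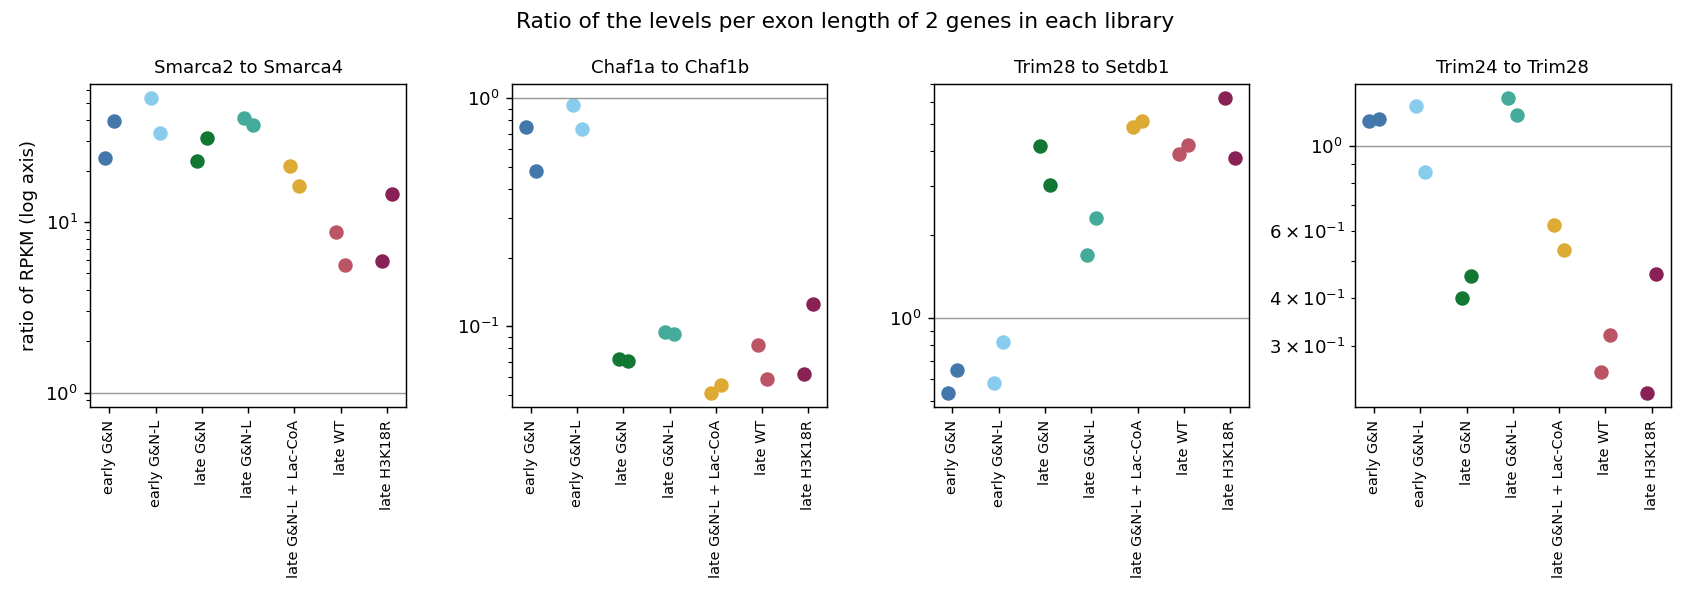
Ratio of the RPKM of 2 genes in each of 14 libraries (points, log axes, grey line at 1) by condition, for Smarca2 to Smarca4, Chaf1a to Chaf1b, Trim28 to Setdb1 and Trim24 to Trim28. Chaf1a to Chaf1b lay at 0.48 to 0.93 early and 0.051 to 0.13 late, and Trim24 to Trim28 in late G&N-L lay at 1.20 and 1.33 against 0.23 to 0.62 in the other 8 late libraries.

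At the early stage, between the withdrawal of lactate at 24 h and collection at 30 h, none of the 10 genes was called between G&N-L and G&N. By edgeR, 0 of the 10 and 0% of 17343 genes were called, and DESeq2 called 37 genes and 0 of the 10. At an unadjusted p under 0.05 none of the 10 passed, where 4.52% of all genes did. The largest difference was that of Chaf1b, at -0.61 ± 0.39 (SE, 95% interval -1.58 to 0.35). The intervals of Trim24, Setdb1 and Ctcf lay within -0.58 to 0.60, so larger changes of these 3 lay outside the 95% intervals, while those of Chd1 ran from -0.90 to 1.74.

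In H3K18R against WT embryos none of the 10 was called by edgeR, where 0.00565% of 17704 genes were, nor by DESeq2, which called 118 genes. Because H3c1 was high in H3K18R and near 0 in WT, the substitution and the amount of H3 mRNA cannot be told apart here. At an unadjusted p under 0.05, 1 of the 10 passed where 6.44% of all genes did. Ctcf read 90.2 and 76.5 CPM in H3K18R and 133 and 151 CPM in WT, which did not overlap, with a log2 fold change of -0.76 ± 0.28 (SE) and an adjusted p of 0.738. The H3K18R replicates stood apart from each other for Smarca5 (494 and 248 CPM), Chd1 (251 and 128 CPM) and Smarca4 (28.0 and 15.7 CPM). In all 3, replicate 1 was the higher, and the WT pairs read 618 and 470, 217 and 212, and 16 and 24 CPM.

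Some of the 10 genes varied together over the 14 libraries. The Pearson correlation of log2 CPM was 0.89 between Smarca5 and Chd1, and 0.90 over the 10 late libraries alone. Between Chaf1a and Chd1 it was -0.95 over 14 and -0.70 over the 10 late libraries, and between Chaf1a and Setdb1 it was 0.88 over 14 and 0.19 over the 10. Trim24 and Chd1 gave 0.14 over 14 and -0.87 over the 10. These points share stages, treatments and replicate structure, and no p is given.

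By the same measure over all genes that passed the filter in the 14 libraries, the 2 genes most like each, Setdb1 apart, were Gle1 (0.96) and Ankrd42 (0.94) for Smarca4, and Nexn (0.97) and 2810408I11Rik (0.97) for Smarca2. They were Polr1h (0.98) and Mier3 (0.98) for Smarca5, Mtpap (0.98) and Nopchap1 (0.98) for Chaf1a, Mbd3 (0.93) and Lss (0.91) for Chaf1b, and Rb1cc1 (0.99) and Adrb3 (0.99) for Chd1. They were Fam43b (0.97) and Wac (0.97) for Trim28 and Cdhr1 (0.88) and Rpl35a-ps7 (0.88) for Ctcf, while Gm47461 (0.96) and a gene known only by its identifier, ENSMUSG00000120680 (0.94), were most like Trim24. None of the 10 was among another's 2 most similar genes. With a prior count of 0.5 in place of 2, both neighbours were kept for 8 of the 10 and 1 of 2 for Trim28 and Ctcf.

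Other genes of the same complexes and pathways were read in the same fits. Of 120 tested in G&N between the stages, 12 rose and 8 fell, beside 8.18% and 5.47% of all genes, and of 118 tested in G&N-L, 13 rose and 10 fell, beside 5.97% and 5.87%. These counts moved with single libraries. Without either late G&N library, or any 1 of the G&N-L libraries, fewer of these genes were called, and fewer of all genes tested were too. The called genes shared 11, all in the same direction, which were 55.0% of the 20 in G&N and 47.8% of the 23 in G&N-L. These stage comparisons share no library. The same overlap over all called genes is not given here, so no trait of these lists is read from it. The 6 that rose in both were Trim33, Pds5a, Ruvbl1, Baz1a, Yy1 and Mta2, and the 5 that fell in both were Ruvbl2, Dnmt1, Mphosph8, Zfp57 and Rbbp7.

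Among partners of SMARCA5 in ISWI complexes, 2 of 10 tested rose in G&N and none fell, beside 8.18% and 5.47% of all genes. Baz1a, the ACF1 subunit, rose 4.12-fold, from 54.1 ± 6.92 to 233 ± 10.8 CPM (SD, n = 2), and Rsf1, the large subunit of the RSF complex, rose 7.75-fold, from 3.95 ± 1.49 to 32.9 ± 3.61 CPM (SD, n = 2). In G&N-L, 1 of 9 rose, Baz1a, by 2.13-fold, beside 5.97% of all genes called higher. Of the non-ATPase subunits that SWI/SNF builds around SMARCA4 or SMARCA2 (the BAF and PBAF complexes), 0 of 24 were called by edgeR in G&N. At an unadjusted p under 0.05, 6 of the 24 passed, where 6691 of 19443 tested genes did. In G&N-L 2 of 23 rose, Bcl7c and Arid2, and 1 fell, Actl6a, beside 5.97% and 5.87% of all genes.

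For the CHD family and the NuRD deacetylase complex, 2 of 20 rose in G&N and 1 fell, beside 8.18% and 5.47% of all genes. Rbbp7, the histone-binding subunit p46, fell to 0.092 of its level, from 5253 ± 10.9 to 511 ± 161 CPM (SD, n = 2), and Hdac1, a histone deacetylase, rose 13.4-fold from 4.63 ± 2.85 to 63.6 ± 27.6 CPM (SD, n = 2). Mta2, a scaffold subunit of NuRD, held 0 and 5 counts in early G&N and 0 and 0 in early G&N-L, and 547, 296, 250 and 193 counts in the 4 late G&N and G&N-L libraries. In the INO80, SRCAP and TIP60 complexes, 1 of 17 rose in G&N and 2 fell, beside the same shares of all genes. The paired ATPases Ruvbl1 and Ruvbl2 went opposite ways, the first rising 4.43-fold and the second falling to 0.19 of its level. Dmap1 fell to 0.043 of its early level, from 9.96 ± 3.16 to 0.46 ± 0.39 CPM (SD, n = 2). In G&N-L, 1 of 16 rose and 3 fell, beside 5.97% and 5.87% of all genes. Dmap1 was not called there, at 6.93 ± 3.46 CPM early and 4.66 ± 0.14 CPM late (SD, n = 2).

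Around TRIM28 and SETDB1, 2 of 18 rose in G&N and 4 fell. Of all genes in that fit, 8.18% rose and 5.47% fell, which stands beside each G&N list count in this paragraph. Zfp57, a KRAB zinc-finger protein that guards imprinted loci through TRIM28, fell to 0.17 of its level, and Mphosph8, a subunit of the HUSH silencing complex, fell to 0.12 of its level, from 522 ± 42.0 to 67.9 ± 14.9 CPM (SD, n = 2). Atf7ip2 rose 7.12-fold and Trim33, a relative of Trim24 and Trim28, rose 5.41-fold. Of other repressors of the 2-cell program, 1 of 18 rose and 1 fell: Dnmt1, the maintenance DNA methyltransferase, fell to 0.26 of its level, and Sumo2, a ubiquitin-like modifier with many near-identical copies that make its counts uncertain, rose 8.64-fold. Of partners of CTCF and cohesin, 4 of 13 rose and none fell in G&N. Yy1, a zinc-finger protein at promoters and loops, was 25.6-fold higher and Zfp143 5.73-fold higher. In G&N-L 5 of 14 rose and none fell, beside 5.97% and 5.87% of all genes. Among the related genes called in G&N-L, the largest fitted changes besides that of Mta2 were a 10.4-fold rise of Tasor, another HUSH subunit, and a 10.4-fold rise of Yy1.

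**Figure D4:**
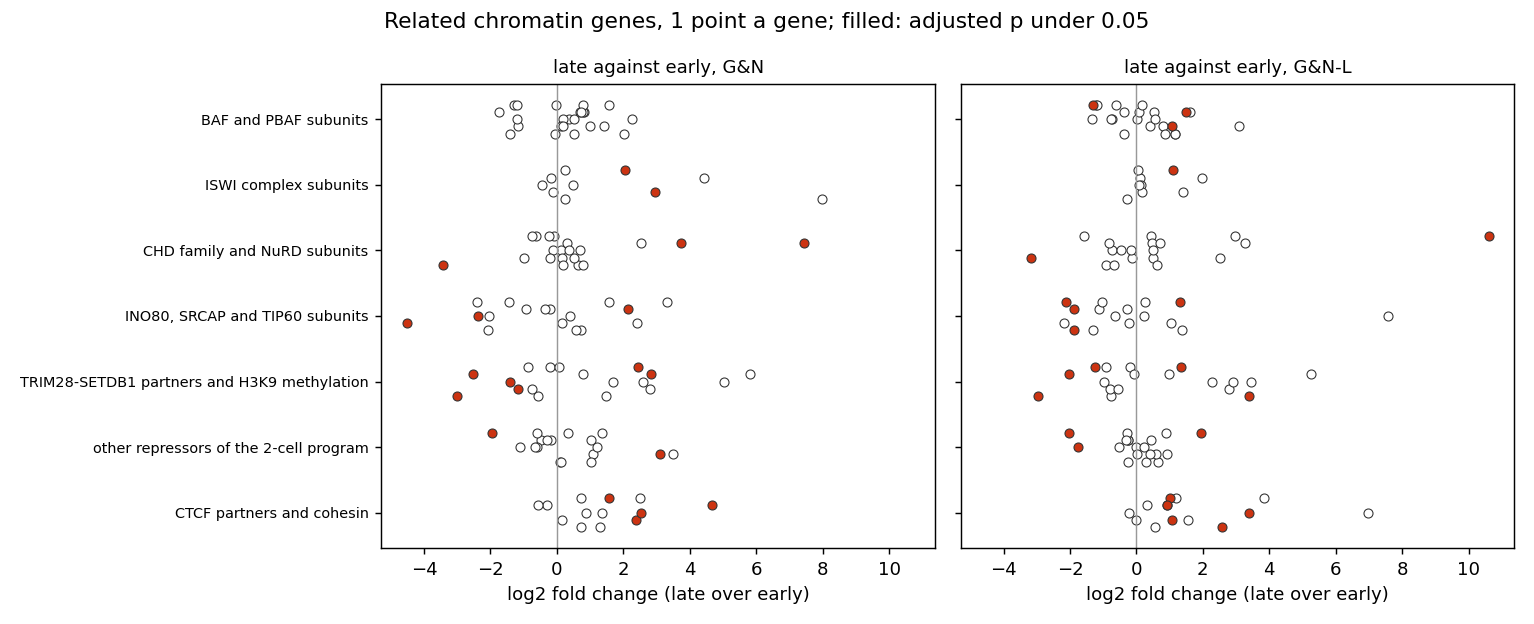
Log2 fold change, late over early 2-cell, of the related genes of 7 lists (1 point a gene) in G&N (left) and G&N-L (right), with filled points at an adjusted p under 0.05. Filled points lie only above 0 in both panels for CTCF partners and cohesin, where 4 of 13 and 5 of 14 rose. The same holds for ISWI subunits, where 2 of 10 and 1 of 9 rose. Of all genes tested, 8.18% rose in G&N and 5.97% in G&N-L. The point beyond 10 is Mta2, whose fitted value depends on the prior count because its early counts were 0 and 0.

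In the other comparisons none of the related genes was called by edgeR. At an unadjusted p under 0.05, 21 of 121 passed in late G&N-L against G&N (12.0% of all genes), 5 of 116 in the early one (4.52%), 21 of 120 with Lac-CoA (13.3%), 9 of 120 in H3K18R against WT (6.44%) and 11 of 122 for the interaction (7.55%). DESeq2 called 10, 0, 9, 1 and 2 of them, and 916, 37, 1183, 118 and 224 of all genes. The median log2 fold change of the related genes was -0.33 in late G&N-L against G&N, beside -0.16 for the 10 genes and -0.02 for all genes tested. With Lac-CoA it was 0.12, beside 0.0051 for the 10 genes and -0.0091 for all genes.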

How the data were processed

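Read counts per gene were deposited for 14 libraries of 5 mouse embryos each. Per the labels and methods, the authors used Trim Galore for trimming, HISAT2 for alignment (mm39) and featureCounts for counting, giving raw, unnormalised counts. Strand and multi-mapping settings are not given in the sources used here, so reads of near-identical copies or of overlapping antisense genes cannot be told apart. From these counts, CPM and RPKM (GENCODE M39, 56236 of 56923 identifiers matched) were computed, and edgeR 4.0.16 (R 4.3.3; TMM, filterByExpr, quasi-likelihood test, Benjamini-Hochberg over all genes) was fitted for each comparison on its own libraries. DESeq2 1.42.0, 2 other scalings, 2 other filters, all libraries in 1 fit, a replicate block and leaving out each library were alternatives. Library totals of 20350427 to 61275465 counts make 3 counts at most 0.147 CPM, for counting error only. The rule for the 10 genes uses no values, but they and the lists were chosen with earlier results of these data known. Named related genes were, for each list in the G&N stage comparison, up to 2 called higher and 2 called lower by size, and in any other comparison all called genes or, above 6, the 3 largest; genes called in both stage comparisons and the called BAF subunits in G&N-L were named beyond this rule, after their values were seen, and the H3 genes besides H3c1 were read after the data were seen. The fits of the G&N stage comparison and of late G&N-L against G&N were run on simulated counts. Changes were planted only in well-counted genes, and no outcome is given here. The genes most like Setdb1 and the sequence before Chd1 are not reported here.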

Additional observations from a re-analysis of the deposited data

How the results depend on the processing

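Of 810 member values under the alternatives, 765 kept their side of the threshold, 24 lost and 21 gained a call. None that was called or beyond 1 SE changed sign, and 30 of the 765, uncalled and within 1 SE of 0, did. In G&N, the count of called members between stages was 3 (2654 of 19443 genes in all). With any 1 library left out it was lower, as it was over all genes. In G&N-L it was 2 (2203 of 18604 genes in all), 6 by DESeq2 (5218 of 18604) and 5 with at least 10 counts in every library (2797 of 11971). With the replicate block it was 1 (1391 of 18604), and with any 1 library left out it was lower, as over all genes. With Lac-CoA it was 0 (0 of 19610 genes in all), and 1 by DESeq2 (1183 of 19610).

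Related genes called between stages in G&N numbered 20, 47 by DESeq2, 43 without a filter on low counts, 39 with at least 10 counts in every library, 35 with all 14 libraries in 1 fit and 0 to 22 with a library left out. In G&N-L they numbered 23, 48 by DESeq2, 35 with at least 10 counts in every library, 14 with the replicate block and 3 to 13 with a library left out. For late G&N-L against G&N the 0 became 10 by DESeq2 (916 of 19481 genes in all), 3 without a filter (317 of 28941) and 2 with at least 10 counts (114 of 14082). By DESeq2 it became 9 with Lac-CoA (1183 of 19610) and 1 in H3K18R (118 of 17704). For the interaction it became 2 by DESeq2 (224 of 22287) and 3 without a filter (361 of 32454). Apart from fewer libraries, the cause of these shifts was not tested.

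Replicate numbers gave no pairing: over 21 pairs of conditions, same-numbered libraries deviated with correlations of -0.044 to 0.036. In the replicate block, Smarca5 in G&N (adjusted p = 0.0786) and Chaf1a and Trim24 in G&N-L (0.0884 and 0.0992) were not called and Chd1 in G&N-L was (0.0406). With 2 libraries in each condition and a 3-library fit, calls rested on few residual degrees of freedom, and a lone library was assumed to vary like the other condition.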
